A study of Mus musculus with 33 samples.

Results

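Nicotine-free e-cigarette aerosol was compared to filtered air in the frontal cortex of male C57BL/6 mice, using the raw read counts of the run whose sample titles end in M. The comparison holds 11 of the 33 samples of the series: 5 exposed libraries, numbered 2, 3, 4, 5 and 7 in their titles, and 6 air libraries, numbered 30, 31, 33, 37, 38 and 39. Dams breathed aerosol from cartridges without nicotine, or filtered air, during pregnancy, and dams and pups together breathed the same during lactation. The offspring were about 1 month old when the tissue was taken, 1 pup was used per litter, and no gene was altered in either group. Each exposure had its own chamber, so chamber and exposure cannot be told apart. The same run also holds 6 libraries of offspring exposed to aerosol whose liquid held nicotine at 13 to 16 mg/mL, which shared the fit and serve here as the nearest group for comparison.

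Frontal cortex is built mainly from glutamatergic projection neurons, which carry signals between cortical areas and to deeper structures, and from fewer GABAergic interneurons. Oligodendrocytes wrap their axons in myelin, and astrocytes clear transmitter and ions around them. Cholinergic neurons that release acetylcholine into the cortex have their cell bodies below it, in the basal forebrain, next to the striatum. The choroid plexus, an epithelium in the ventricles that secretes cerebrospinal fluid and transthyretin, lies outside the cortex altogether. In RNA from whole tissue, fewer cells of a type and less RNA per cell cannot be told apart.

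Levels are CPM, read counts scaled to a common library size with edgeR's TMM factors. Fold changes are on the log2 scale, exposed minus air, with their standard error (SE), and called genes are those whose Benjamini-Hochberg adjusted p from edgeR's quasi-likelihood test was under 0.01. The 11 libraries held 19226640 to 24600026 counts. Xist stayed at or below 0.253 CPM in all of them and 4 Y-linked genes summed to 114 to 131 CPM, which fits the labelled sex. The library labelled nicotine replicate 21, which is in the fit but in neither group, had Xist at 215 CPM. Counts of any 2 libraries of a group differed by 4.53 to 24.0 times the sampling noise (chi-square per degree of freedom), so none was a repeat. The range was 4.53 to 11.4 in air and 6.52 to 24.0 in exposed libraries. Slc17a7, the vesicular glutamate transporter of cortical neurons, was at 2037 to 2496 CPM in air, as the labelled tissue requires.

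Exposure to nicotine-free aerosol was accompanied by lower expression of genes of cortical glutamatergic neurons and their synapses, and by higher expression of genes of basal forebrain cholinergic neurons and of myelin. Of 15293 genes tested, 941 were higher (6.15%) and 1143 lower (7.47%), 13.6% in all. Most changes were small: the median absolute log2 fold change of the called genes was 0.35, and 153 of the 2084 exceeded a 2-fold change. The median over all genes tested was 0.02. In 1899 genes (12.4% of those tested) the 5 exposed libraries did not overlap the 6 air libraries, all above in 838 (5.48%) and all below in 1061 (6.94%). The 2 groups also took opposite ends of the first principal component, which held 24.9% of the variance, at 6.34 to 19.7 in exposed and -16.7 to -4.70 in air libraries.

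The called genes differed in structure by direction, described here without a test. In the mm9 annotation, lower genes spanned a median of 61134 bases, higher genes 19668 and all genes tested 23992. Their longest protein-coding transcripts had medians of 4275, 2862 and 3070 bases in the same order, and GC contents of 50.3, 52.5 and 50.6%. The lower genes also had more reads: their median of mean levels in air was 98.4 CPM, against 28.9 for higher genes and 20.2 for all. At least 91.0% of each set had a value for span, length and GC.

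Among the higher genes, Nkx6-2 (chromosome 7, 146765276 to 146768696 in mm9), a homeodomain factor of myelinating oligodendrocytes, had one of the smallest p values. It was at 11.2, 12.1 and 13.5 CPM (lowest, median and highest) in air and at 22.9, 24.3, 24.5, 25.8 and 16.3 CPM in exposed replicates 2, 3, 4, 5 and 7, an order kept for all exposed values below. The groups did not overlap, and replicate 7 stood nearest to air (log2 fold change 0.91, SE 0.09, edgeR adjusted p = 1.62e-05). An annotated exon of Inpp5a lies on the opposite strand, and whether counting used the strand is not given in the sources used here.

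Tacr3, the neurokinin B receptor, went from 4.36, 7.44 and 9.36 CPM to 21.3, 24.9, 20.5, 17 and 14 CPM. The secreted matrix protein Sparc followed, from 480.5, 580.2 and 678 CPM to 1036, 1067, 1104, 929.8 and 839 CPM. For both, every exposed library was above every air library (log2 fold changes 1.46 and 0.79, each with an edgeR adjusted p of 2.14e-05).

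The same adjusted p was reached by Cd81, a tetraspanin (log2 fold change 0.41), Rnd2, an atypical small GTPase (0.49), Bhlhe41, a repressor of the circadian loop (0.45), and Efnb3, an ephrin guidance ligand (0.57). None of the 4 overlapped between the groups. Exons on the opposite strand overlap those of Cd81 (R74862) and Rnd2 (Vat1).

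Lower genes were led by Slc39a10 (chromosome 1, 46864389 to 46910891), a zinc importer, and Pgm2l1 (chromosome 7, 107375904 to 107427378), a brain enzyme that makes glucose 1,6-bisphosphate. Slc39a10 was at 206, 219 and 229 CPM in air and at 142, 129.6, 139, 135 and 141 CPM in exposed libraries, which lay close together and well below air (log2 fold change -0.66, SE 0.06, edgeR adjusted p = 5.51e-06). Pgm2l1 was at 539, 556 and 572 CPM in air and at 341, 298, 305, 335 and 390.5 CPM in exposed libraries (-0.74, SE 0.06, edgeR adjusted p = 5.51e-06). The spread within air was small for both genes.

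Tshz3, a zinc finger factor of cortical projection neurons, fell from 28.1, 29.9 and 32.9 CPM to 15.8, 16.6, 17.8, 15 and 20.5 CPM (log2 fold change -0.82, SE 0.08, edgeR adjusted p = 1.62e-05). Ttc7b, a scaffold of the kinase complex that makes phosphatidylinositol 4-phosphate, fell by 0.37 on the log2 scale (edgeR adjusted p = 9.18e-06), and Ppm1h, a protein phosphatase, by 0.51 (1.62e-05). Pcdh1, a protocadherin adhesion protein, was lower by the same amount (log2 fold change -0.51, edgeR adjusted p = 2.14e-05). Dkkl1, a secreted dickkopf-like protein, had the larger change of -1.37 (edgeR adjusted p = 1.62e-05). No exposed library reached the lowest air library in any of these 5 genes.

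**Figure D1:**
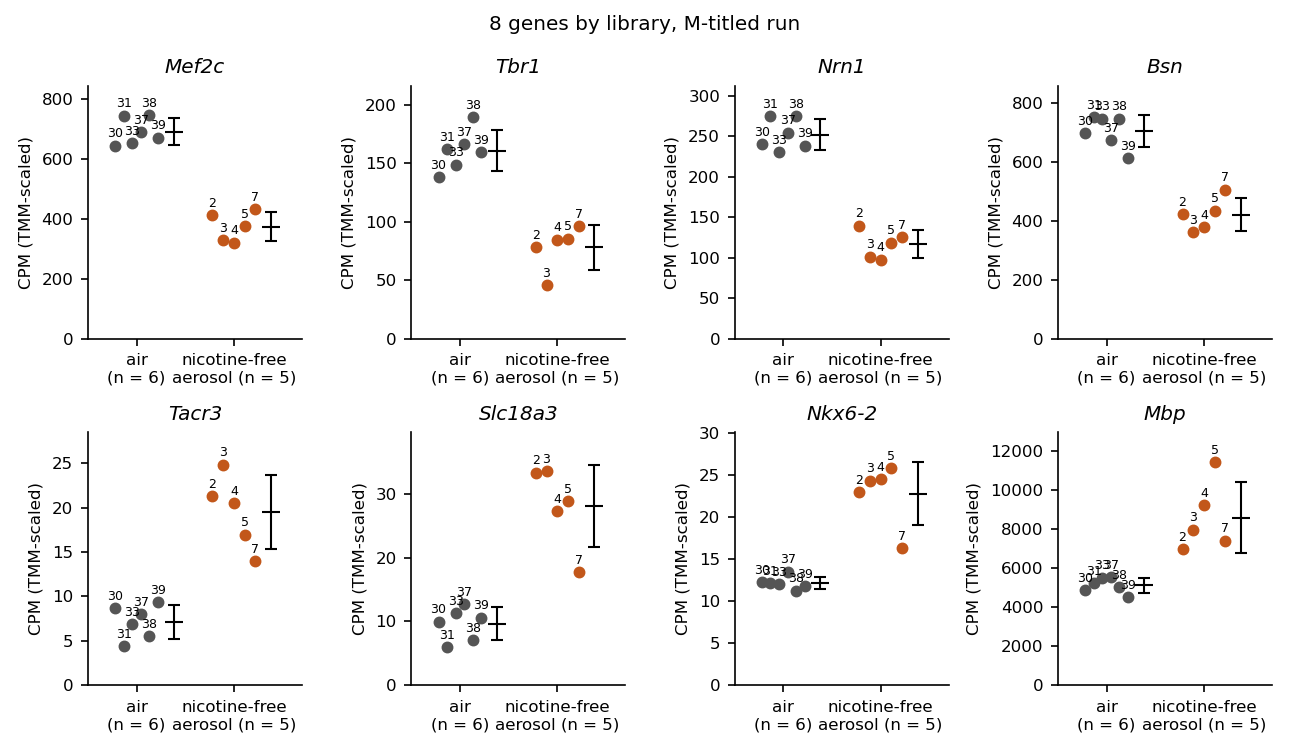
Levels of 8 genes in each library as TMM-scaled CPM (linear axes from 0), with 6 air libraries in grey and 5 nicotine-free libraries in orange, each numbered by its title; the bars give mean and SD. Mef2c, Tbr1, Nrn1 and Bsn were lower, and Tacr3, Slc18a3, Nkx6-2 and Mbp higher, in every exposed library than in every air library, and in most panels exposed replicate 7 stood nearest to air.

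By size of change among called genes with a mean of at least 1 CPM, several higher genes were at low levels. Calcr, the calcitonin receptor, was at 0.178, 0.863 and 1.58 CPM in air and at 4.70, 6.56, 10.5, 1.67 and 3.36 CPM in exposed libraries (log2 fold change 2.55, SE 0.49, edgeR adjusted p = 0.00105). Gabre, a GABA-A receptor subunit, went from 0.203, 0.267 and 0.692 CPM to 2.70, 2.52, 4.75, 0.962 and 1.04 CPM (2.62, SE 0.47, edgeR adjusted p = 0.000582). Both were separated from air in every library, by a narrow gap in replicate 5.

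The pituitary hormone gene Gh had 1 count in 1 air library and 0 in the other 5. In exposed replicates 2 to 7 it had 1, 220, 0, 3 and 312 counts, so replicates 3 and 7 held nearly all of its counts. Its call (edgeR adjusted p = 0.00466) was lost without either of them and without any 1 of the air libraries, and the adjusted p was 0.0143 without replicate 7. Oxt, the oxytocin gene of hypothalamic neurons, was at 0, 0.258 and 0.960 CPM in air and at 1.95, 3.21, 3.66, 1.47 and 1.28 CPM in exposed libraries (2.54, SE 0.57, edgeR adjusted p = 0.00338). Of 50-base windows of the Oxt transcript 16.0% occur in other genes, and the call was lost without air replicate 31 or 38 or exposed replicate 3 or 4.

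On the lower side, Nptxr, the neuronal pentraxin receptor, had a log2 fold change of -2.03 (edgeR adjusted p = 0.000669), but 84.1% of its 50-base windows occur in other genes, among them its neighbour Npcd, so its count is uncertain. Igfn1 fell from 12.5, 14.1 and 19.2 CPM to 7.25, 3.78, 4.91, 4.30 and 2.51 CPM, with no overlap. Cd6, a lymphocyte surface receptor, had a log2 fold change of -2.11 (edgeR adjusted p = 0.000835) at levels of at most 2.93 CPM.

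Genes of cortical glutamatergic neurons were lower almost without exception. Of 17 markers tested 16 were lower and none was higher (7.47% and 6.15% of all genes), with a median log2 fold change of -0.99 beside 0.02 over all genes tested. In 14 of them every exposed library was below air, as in 6.94% of all genes. The exception, Nrgn, a calmodulin-binding protein of dendritic spines, was at 577, 523, 511, 1097 and 1052 CPM in exposed libraries against 1002, 1147 and 1391 CPM in air (-0.62, SE 0.19, edgeR adjusted p = 0.0208), since replicates 5 and 7 stayed in the air range.

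Mef2c (chromosome 13, 83643033 to 83806684), a transcription factor of excitatory synapse number, was at 645, 680.3 and 746 CPM in air and at 412, 328, 321, 376 and 432 CPM in exposed libraries (log2 fold change -0.89, SE 0.09, edgeR adjusted p = 2.14e-05). Tbr1 (chromosome 2, 61640987 to 61652171), which sets the identity of deep-layer neurons, was at 138, 161 and 189 CPM in air and at 78.3, 45.9, 84.6, 85.4 and 95.9 CPM in exposed libraries (-1.04, SE 0.14, edgeR adjusted p = 6.63e-05). Slc17a7 fell to 1077, 654, 1125, 1186 and 1497 CPM, 2.04-fold on average (edgeR adjusted p = 7.72e-05). In each of the 3 genes the exposed values stayed below the lowest air value, and replicate 7 was the highest exposed library.

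Nrn1, a membrane-anchored protein that promotes neurite growth, and Nptx1, a pentraxin that clusters AMPA receptors, had log2 fold changes of -1.12 and -0.76 (edgeR adjusted p = 3.24e-05 and 4.47e-05). Emx1, the homeodomain factor of the dorsal telencephalon, fell by 0.99 on the log2 scale (edgeR adjusted p = 8.27e-05). Camk2a, the calcium kinase of the spine, was called at -0.50 (edgeR adjusted p = 0.000776) although the groups overlapped, with 4633 CPM in exposed replicate 7 against 4539 CPM in the lowest air library.

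Layer markers were less uniform. Of 17 upper-layer markers 6 were lower and none higher (median log2 fold change -0.34), with Plxnd1, a semaphorin receptor (-0.75, edgeR adjusted p = 0.000134), Cux2, a homeodomain factor of layers 2 to 4 (-0.55, 0.000553), and Rasgrf2, an exchange factor (-0.55, 0.000656), in the lead. The 19 deep-layer markers split into 3 higher and 2 lower (median -0.02). Nr4a2, an orphan nuclear receptor of the subplate, fell from 54.2, 63.7 and 73.9 CPM to 14.6, 12.5, 29.0, 40.2 and 34 CPM (-1.28, SE 0.22, edgeR adjusted p = 0.000519). The forkhead factor Foxp2 moved the other way, from 25.9, 30.4 and 43.6 CPM to 57.9, 70.5, 42.8, 57.1 and 44.8 CPM, with replicate 4 inside the air range (0.77, SE 0.14, edgeR adjusted p = 0.000768). Foxp2 is also a marker of thalamus in the lists used here. Leaving out air replicate 30 or 31 or exposed replicate 3 reduced the deep-layer calls from 5 to 3.

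**Figure D2:**
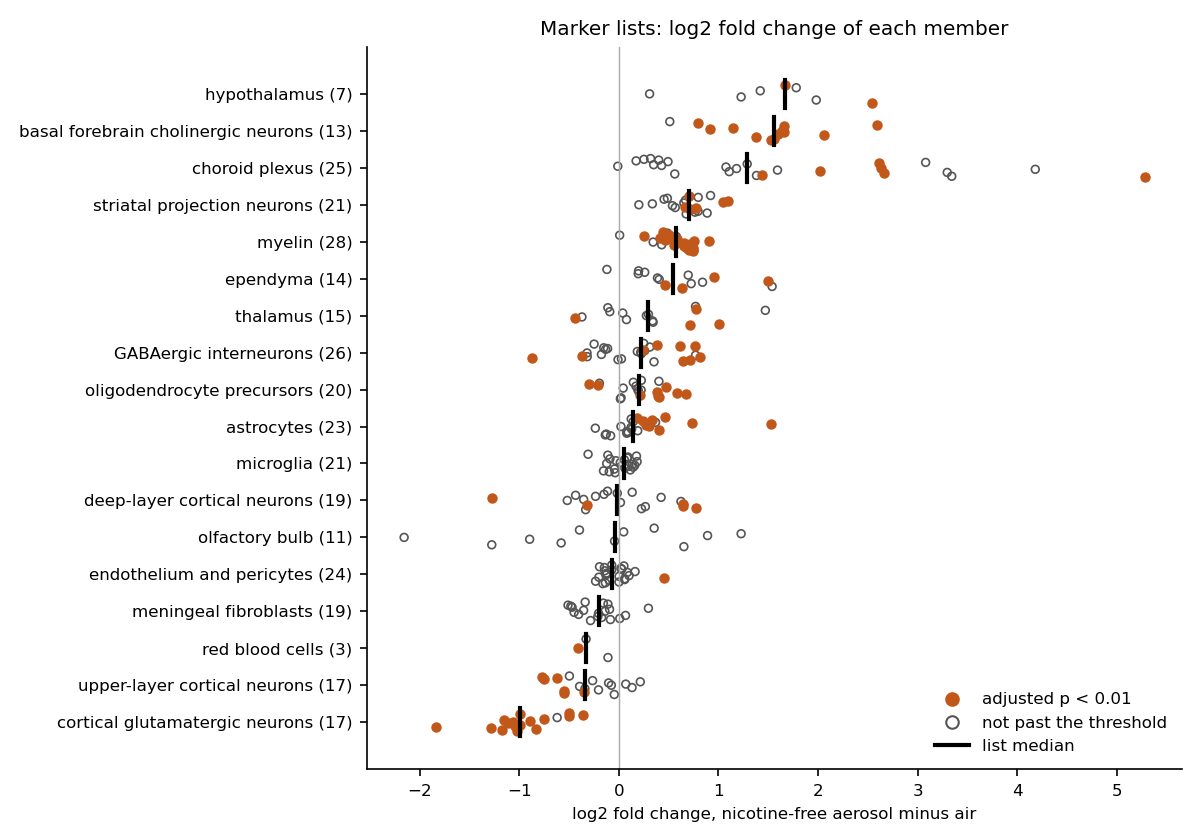
Log2 fold change, nicotine-free aerosol minus air, of each tested member of 18 marker lists (number tested in brackets), ordered by the list median (black bar); orange points passed an adjusted p of 0.01 and open points did not. Cortical glutamatergic markers lay to the left (median -0.99), cholinergic markers (1.56) and myelin genes (0.58) to the right, and microglial markers (0.06) around 0.

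Markers of basal forebrain cholinergic neurons were the counterpart. Of 13 tested 12 were higher and none was lower, and the median log2 fold change was 1.56. In 11 every exposed library was above air, as in 5.48% of all genes. Slc18a3, which loads acetylcholine into vesicles, was at 5.96, 10.3 and 12.7 CPM in air and at 33.4, 33.6, 27.3, 28.9 and 17.7 CPM in exposed libraries (log2 fold change 1.56, SE 0.18, edgeR adjusted p = 2.14e-05). Its host gene Chat (chromosome 14, 33221389 to 33279095), which makes acetylcholine, was at 3.25, 7 and 8.14 CPM in air and at 22.2, 21.4, 18.9, 17.6 and 9.05 CPM in exposed libraries. Replicate 7 was the nearest to air for both.

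Slc5a7, the choline transporter, had a log2 fold change of 1.38 (edgeR adjusted p = 3.28e-05), and Ache, which breaks acetylcholine down, of 0.91 (2.63e-05). The LIM homeodomain factors that specify these neurons, Isl1 and Lhx8, were higher by 1.14 (edgeR adjusted p = 3.34e-05) and 1.66 (0.000162). Ngfr, the neurotrophin receptor p75, was at 48.3, 52.0, 44.8, 25.7 and 18.8 CPM in exposed libraries against 3.11, 10.5 and 14.8 CPM in air. Gal, the galanin gene, was low throughout, at 0.0889, 0.248 and 0.576 CPM in air and 1.91, 1.39, 3.78, 0.709 and 0.805 CPM with exposure (2.59, SE 0.48, edgeR adjusted p = 0.000796). Zic4 was the 1 member not called (0.51, SE 0.24, edgeR adjusted p = 0.133), with 6.40 CPM in exposed replicate 4 and 2.43 to 3.49 CPM in the other 4.

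Genes of other deep structures tended the same way, with less certainty. All 21 striatal projection neuron genes had a positive log2 fold change (median 0.70), and 6 were called higher. Six3, a homeodomain factor of striatal precursors, separated the groups, at 11.8, 16.2 and 22.6 CPM in air and 39.2, 42.9, 29.3, 42.3 and 28.4 CPM with exposure (log2 fold change 1.10, SE 0.17, edgeR adjusted p = 0.000167). Tac1, which encodes substance P, and Gpr6, a receptor of the indirect pathway, were called at 0.78 and 1.04 (edgeR adjusted p = 0.00259 and 0.00308). For Gpr6 replicate 4, at 14.8 CPM, lay inside the air range of 9.65 to 17.3 CPM. Penk, the enkephalin gene, missed the threshold (0.72, SE 0.20, edgeR adjusted p = 0.0132). Gpr6 lost its call without exposed replicate 3 or 5. The count of 6 was 3 without air replicate 30, 31, 38 or 39 or exposed replicate 2 or 5, 2 without exposed replicate 3 and 11 without exposed replicate 4.

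Of 15 thalamic genes 3 were higher and 1 lower (median log2 fold change 0.30). Tcf7l2, a Wnt effector of thalamic neurons, was higher (0.71, edgeR adjusted p = 0.000103), as was the homeodomain factor Gbx2 (1.01, 0.00277), while the nuclear receptor Rora was lower (-0.44, 0.00280). Without air replicate 30 the thalamic calls rose from 4 to 7, and Gbx2 lost its call without exposed replicate 3. Only 7 of 15 hypothalamic genes passed the filter on low counts, 2 of them called higher (Oxt and Fezf1). Their summed level was 5.14 to 20.1 CPM in air and 17.5 to 43.2 CPM with exposure. Neither was called without exposed replicate 3 or 4, and 1 was called without air replicate 31 or 38. None of 11 olfactory bulb genes was called.

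Interneuron genes were mixed, with 7 of 26 higher and 2 lower (median log2 fold change 0.22). Slc32a1, the vesicular GABA transporter, was at 168, 203 and 251 CPM in air and at 349.98, 427, 328, 313 and 265 CPM in exposed libraries (0.71, SE 0.10, edgeR adjusted p = 0.000104). Lhx6 and Dlx6, homeodomain factors of the ventral forebrain lineage, were higher by 0.81 and 0.77 (edgeR adjusted p = 0.000125 and 0.000231). Vip, the peptide of a superficial interneuron class, was lower in each exposed library, at 13.6, 14, 16.7, 12 and 21.7 CPM against 23.3, 28.8 and 33.7 CPM in air (-0.88, SE 0.13, edgeR adjusted p = 0.000157). The forebrain homeobox and Zic genes as a list had 15 of 38 higher and 4 lower. Emx1, Cux2 and Satb1 were among the lower ones, and the higher ones included Nkx6-2, Isl1, Lhx8, Six3, Dlx6, Lhx6 and Gbx2.

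The level of these groups differed among the exposed libraries. As mean log2 CPM, cortical glutamatergic markers were below the air mean by 1.04, 1.53, 1.07, 0.87 and 0.51 in replicates 2, 3, 4, 5 and 7, and air libraries lay within -0.08 to 0.11 of it. Cholinergic markers were above it by 1.65, 1.71, 1.81, 1.15 and 0.79, with air libraries from -0.61 to 0.35. Replicate 7 had the smallest shift of both lists. The part of markers of regions below the cortex in the other gene groups was not tested.

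**Figure D3:**
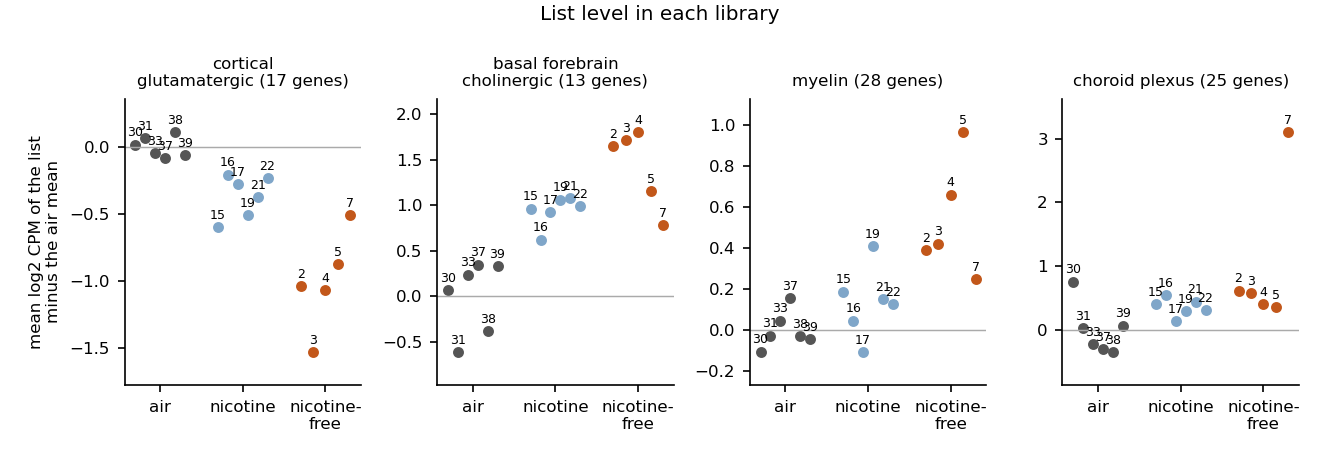
Mean log2 CPM of 4 marker lists in each library, relative to the mean of the air libraries, for air (grey), aerosol with nicotine (blue) and nicotine-free aerosol (orange); points carry the replicate numbers. In the cortical, cholinergic and myelin lists the nicotine-free libraries did not overlap air, and in the choroid plexus list replicate 7 stood alone at 3.10.

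Myelin genes rose as a group. Of 28 tested 22 were higher and none was lower, with a median log2 fold change of 0.58, and all 28 had a positive value. In 15 every exposed library was above air, as in 5.48% of all genes. Mbp, myelin basic protein, was at 4521, 5123 and 5529.9 CPM in air and at 6959, 7958, 9205, 11426 and 7395 CPM in exposed libraries (0.75, SE 0.11, edgeR adjusted p = 0.000164). The groups did not overlap, replicate 5 was the highest, and replicates 2 and 7 were the lowest of the exposed libraries.

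Pllp, or plasmolipin, and Plekhb1, a membrane-binding protein of glia and photoreceptors, were also among the smallest p of the list (log2 fold changes 0.50 and 0.43, edgeR adjusted p = 0.000277 and 0.000239). Mag, the adhesion protein between myelin and axon, was at 334, 342 and 395 CPM in air and at 464, 505, 677, 797 and 474 CPM in exposed libraries (0.73, SE 0.13, edgeR adjusted p = 0.000623). Opalin, a glycoprotein of mature oligodendrocytes, overlapped between the groups, since replicate 7 at 21.1 CPM was below the highest air library at 22 CPM (0.55, SE 0.12, edgeR adjusted p = 0.00216).

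Transcription of myelin genes depends on the factor SOX10, whose gene was called higher and belongs to the list. The 250 bases upstream of the start were searched on both strands for the SOX core ACAAAG, because the myelin genes moved together. The motif was chosen after the gene values were seen. Of the 22 called myelin genes 14 had an entry in the RefSeq promoter table (GRCm38.p6), and 7 of them held the motif, beside 18.6% of the 27025 genes in the table. Among called cortical glutamatergic markers with an entry it was found in 3 of 9, and among cholinergic markers in 0 of 10. The E-box CAGATG, bound by NEUROD factors, was present in 4, 2 and 1 genes of the 3 lists in the same order (16.3% of all genes), and the homeobox core TAATTA in 0, 2 and 0 (5.65%). The upstream sequences of Mag and Opalin are shown 5′ to 3′ as examples of a match on each strand, both genes being on the minus strand, with the motif or its reverse complement CTTTGT in capitals.
Mag, chr7:30914923-30915172: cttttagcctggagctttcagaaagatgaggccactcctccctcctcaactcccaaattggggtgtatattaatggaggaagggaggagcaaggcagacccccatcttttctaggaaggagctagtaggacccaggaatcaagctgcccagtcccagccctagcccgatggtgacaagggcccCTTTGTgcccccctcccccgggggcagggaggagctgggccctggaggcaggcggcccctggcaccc
Opalin, chr19:41077114-41077363: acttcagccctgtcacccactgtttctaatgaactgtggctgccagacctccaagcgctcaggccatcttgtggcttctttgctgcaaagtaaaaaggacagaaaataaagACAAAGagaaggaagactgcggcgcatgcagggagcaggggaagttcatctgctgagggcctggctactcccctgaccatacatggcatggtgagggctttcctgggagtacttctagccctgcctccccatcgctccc
A match describes these letters and is not evidence that a factor binds there.

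Oligodendrocyte precursor genes were split, 7 of 20 higher and 2 lower (median log2 fold change 0.21). Bcas1, a marker of cells starting to myelinate, was at 144, 154 and 165 CPM in air and at 203, 208, 225, 241 and 196 CPM with exposure (0.47, SE 0.06, edgeR adjusted p = 2.43e-05), with no overlap. Olig1, a lineage factor, and Bmp4, a signal that holds precursors back, were higher by 0.39 and 0.67 (edgeR adjusted p = 0.000222 and 0.000923), and Tnr, a matrix glycoprotein, was lower by 0.21 (0.00109). The 9 calls became 5 without air replicate 38 or 39 and 4 without exposed replicate 4.

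Astrocyte genes were called higher in 9 of 23 and lower in none (median log2 fold change 0.15). Slc6a11, an astrocytic GABA transporter that is abundant in deep structures, was at 367, 434 and 505 CPM in air and at 819, 773, 850.2, 561 and 599.6 CPM with exposure (0.74, SE 0.10, edgeR adjusted p = 9.64e-05). Slc7a10, a serine transporter, was higher by 0.46 and Mlc1, a membrane protein of astrocytic endfeet, by 0.24 (edgeR adjusted p = 0.000102 and 0.000167). Gfap, the filament protein of reactive astrocytes, was not called (-0.08, SE 0.13, edgeR adjusted p = 0.702). No call was made among 21 microglial genes (median 0.06) or 19 meningeal genes (median -0.20). Of 24 endothelial and pericyte genes 1 was called, the glucose transporter Slc2a1 (0.46, edgeR adjusted p = 0.00818), and it was lost without any of air replicates 30, 31, 33, 37, 38 and 39 or exposed replicates 3, 4, 5 and 7, and without nicotine replicate 21. Ependymal genes had 4 of 14 higher (median 0.55), led by Foxj1, the master factor of motile cilia, at 7.05, 7.97 and 9.48 CPM in air and 11.9, 10.8, 12.4, 15.7 and 11.7 CPM with exposure (0.63, SE 0.11, edgeR adjusted p = 0.000494). The ependymal count was 2 without air replicate 31, 37, 38 or 39 or exposed replicate 3, 4, 5 or 7. Of 3 genes of red blood cells that passed the filter, 1 was lower.

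Genes that serve transmitter release were lower more often than higher, 18 against 2 of 37 (median log2 fold change -0.18). Bsn (chromosome 9, 107998354 to 108092715), or bassoon, a giant scaffold of the presynaptic active zone, was at 613, 723 and 752 CPM in air and at 423, 362, 379, 434 and 505 CPM in exposed libraries (-0.75, SE 0.08, edgeR adjusted p = 2.14e-05). Sv2b, a glycoprotein of synaptic vesicles, was at 546, 677 and 768 CPM in air and at 378, 247, 306, 372 and 347 CPM with exposure (-1.02, SE 0.12, edgeR adjusted p = 2.35e-05). Syn1, which tethers vesicles, and Dnm1, the GTPase that pinches them off, fell by 0.44 and 0.40 on the log2 scale (both with an edgeR adjusted p of 2.14e-05). None of the 4 overlapped between groups. Exons on the opposite strand overlap those of Bsn, Sv2b and Syn1.

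On the receiving side, 12 of 26 genes of postsynaptic scaffolds and kinases were lower and none was higher (median log2 fold change -0.28). Dlgap1, a partner of PSD-95, was at 602, 639 and 712 CPM in air and at 456, 371, 432, 414 and 513 CPM with exposure (-0.57, SE 0.07, edgeR adjusted p = 2.53e-05). Kalrn, an exchange factor of spine growth, and Iqsec2, an Arf exchange factor, had changes of -0.58 and -0.51 (edgeR adjusted p = 2.73e-05 and 0.000157). Of 16 subunits of NMDA, AMPA and kainate receptors 5 were lower and none higher (median -0.06). The NMDA subunits Grin2a and Grin2b changed most, by -0.91 and -0.81 (edgeR adjusted p = 0.000141 and 9.95e-05), with Gria3 at -0.39 (0.000684). The obligatory subunit Grin1 was called at -0.18, and 1 of the 5 calls was Gria2 at the same value. Both lost their call without air replicate 37 or 38 or exposed replicate 3 or 4, which left 3. None of 7 metabotropic receptors was called (Grm5, log2 fold change -0.11, edgeR adjusted p = 0.266).

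Ion channel lists were also weighted to lower values. Of 41 voltage-gated potassium channel genes 10 were lower and 1 higher (median log2 fold change -0.17), and of 29 sodium and calcium channel genes 11 were lower and 2 higher (median -0.18). Kcnv1, a silent subunit that modifies other potassium channels, was at 133, 148 and 169.8 CPM in air and at 85.8, 63.4, 63.5, 90.4 and 86.9 CPM with exposure (-0.93, SE 0.11, edgeR adjusted p = 2.14e-05). Cacna1a, the P/Q-type pore, and Cacna2d1, an auxiliary subunit, had values of -0.47 and -0.58 (edgeR adjusted p = 2.16e-05 and 2.62e-05), while the related auxiliary subunit Cacna2d2 was higher, at 43.7, 57.0 and 67.5 CPM in air and 102, 115, 111, 85.0 and 82.3 CPM with exposure (0.83, SE 0.10, edgeR adjusted p = 2.16e-05). Each of these genes separated the groups. The potassium channel calls fell from 11 to 7 without air replicate 31 or 38 or exposed replicate 3.

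Inhibitory and modulatory receptors were called in both directions (13.6% of all genes were called). Of 13 GABA-A subunits 2 were higher, Gabre and Gabrg1 (log2 fold change 0.28, edgeR adjusted p = 0.00441), and 1 lower, Gabra3 (-0.36, 0.000877). Gabrg1 lost its call without air replicate 30, 31 or 38 or exposed replicate 3 or 4. Among 13 acetylcholine receptors 3 were lower, the muscarinic receptors Chrm3 (-0.66, edgeR adjusted p = 2.73e-05) and Chrm1 (-0.36, 0.00135) and the nicotinic subunit Chrna5 (-0.75, 0.00158). The nicotinic subunit Chrna2 was higher (0.85, edgeR adjusted p = 0.00687), at 1.06 to 2.40 CPM in air and 2.08 to 3.78 CPM with exposure, and was lost without air replicate 30, 31, 37 or 38 or exposed replicate 2, 3 or 4. Of 24 monoamine receptors 2 were higher and 4 lower. Drd5, a dopamine receptor, was at 2.44, 3.24 and 4.60 CPM in air and at 6.04, 7.34, 6.12, 6.53 and 5.02 CPM with exposure (0.93, SE 0.14, edgeR adjusted p = 0.00013), and Adra1d, an adrenergic receptor, was lower (-1.37, SE 0.27, 0.00138) with replicate 7 at 11.5 CPM inside the air range of 11.1 to 22.3 CPM.

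Of 24 neuropeptides 5 were higher and 3 lower. Cck, which cortical neurons make in quantity, was at 198, 210.4 and 233 CPM in air and at 89.1, 76.4, 107, 114 and 199 CPM with exposure, so that replicate 7 fell within air (log2 fold change -0.87, SE 0.18, edgeR adjusted p = 0.00193). Chgb, a granin of dense-core vesicles, was lower in all 5 exposed libraries (-0.60, SE 0.09, edgeR adjusted p = 0.000145). The 8 peptide calls became 5 without air replicate 31 or 38 or exposed replicate 3.

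Immediate early genes, which neurons switch on with activity, had 5 of 28 lower and none higher (median log2 fold change -0.23). Nptx2, an activity-induced pentraxin, was at 80.9, 95.5 and 104 CPM in air and at 55.9, 39.5, 48.8, 52.9 and 48.8 CPM with exposure (-0.92, SE 0.11, edgeR adjusted p = 3.28e-05). Bdnf and Ptgs2, or cyclooxygenase 2, had log2 fold changes of -0.77 and -0.92 (edgeR adjusted p = 0.00162 and 0.00156). Egr1, a zinc finger factor of this class, was not called (0.03, SE 0.20, edgeR adjusted p = 0.937). Of 17 neurotrophic factors and receptors 5 were higher and 2 lower, Ngfr among the former and Bdnf among the latter. Fgf1 and the vascular growth factor Vegfa were higher by 0.32 and 0.37 (edgeR adjusted p = 0.000282 and 0.000472). Axon guidance genes had 9 of 60 higher and 6 lower (median -0.10), with Ntn1, the attractant netrin, at 0.55 (edgeR adjusted p = 0.000382) and Ntng2, a membrane-bound netrin relative, at -0.72 (0.000461). Perineuronal net and matrix genes had 2 of 24 higher and 2 lower (median 0.03), beside 6.15% and 7.47% of all genes.

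**Figure D4:**
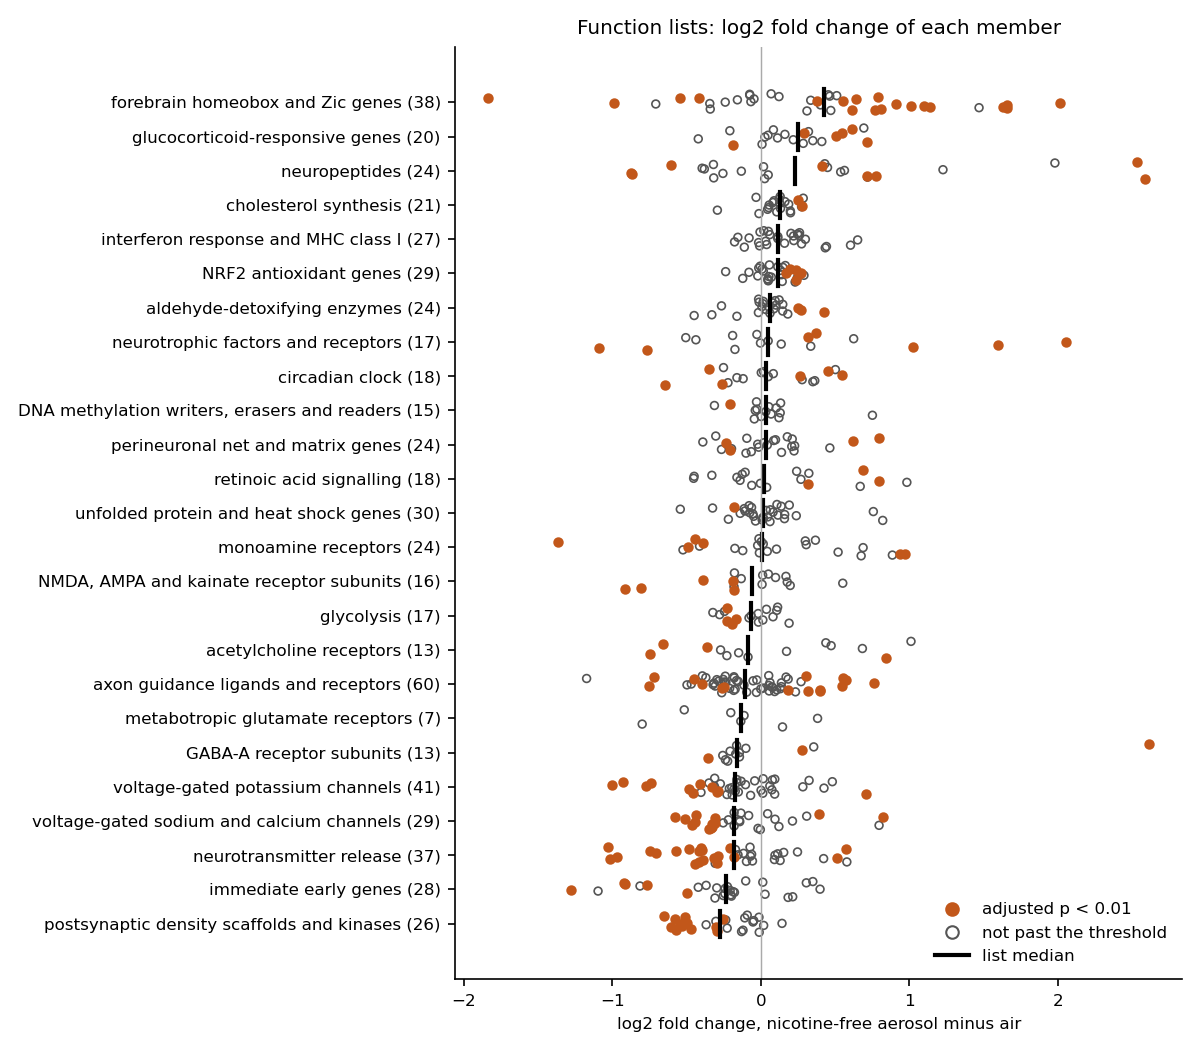
Log2 fold change, nicotine-free aerosol minus air, of each tested member of 25 function lists (number tested in brackets), ordered by the list median (black bar); orange points passed an adjusted p of 0.01 and open points did not. Postsynaptic, immediate early and release genes lay furthest to the left (medians -0.28, -0.23 and -0.18). NRF2 antioxidant, aldehyde-detoxifying and heat shock lists lay closer to 0 (0.11, 0.06 and 0.02), and glucocorticoid-responsive genes lay to the right (0.25).

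Lists chosen for the exposure itself showed small shifts. NRF2 antioxidant genes had 6 of 29 higher and none lower (6.15% and 7.47% of all genes; median log2 fold change 0.11). Txnrd1, thioredoxin reductase, was at 59.0, 64.6 and 66.9 CPM in air and at 75.5, 76.9, 72.7, 75.8 and 74.2 CPM with exposure (0.24, SE 0.04, edgeR adjusted p = 0.000443), and G6pdx, which feeds NADPH, at 0.26 (0.000691) was as clearly apart. Sod1 was higher by 0.24 (edgeR adjusted p = 0.00168). Enzymes that detoxify aldehydes, which heated glycols can give off, had 3 of 24 higher and none lower (median 0.06). Over all genes 13.6% were called, 6.15% higher and 7.47% lower. Aldh5a1, succinic semialdehyde dehydrogenase, was higher by 0.27 (edgeR adjusted p = 0.00056) and Aldh3b1 by 0.42 (0.00138). Heat shock and unfolded protein genes had 1 of 30 lower (Hsph1, -0.18, edgeR adjusted p = 0.0099) and none higher, and this call was lost without air replicate 30, 33, 37, 38 or 39, exposed replicate 4, 5 or 7 or nicotine replicate 21. None of 27 interferon and MHC class I genes was called (median 0.12).

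Glucocorticoid-responsive genes had 5 of 20 higher and 1 lower (median log2 fold change 0.25). Tsc22d3, or GILZ, was at 42.4, 51.6 and 53.5 CPM in air and at 49.2, 82.1, 80.5, 105 and 94.4 CPM with exposure, with replicate 2 inside the air range (0.72, SE 0.13, edgeR adjusted p = 0.000767). The metallothionein Mt2 separated the groups, at 85.1, 93.0 and 102 CPM against 111, 136, 125, 174 and 128 CPM (0.55, SE 0.09, edgeR adjusted p = 0.000308). The receptor Nr3c1 itself was lower (-0.19, edgeR adjusted p = 0.00554), a call lost without air replicate 30, 33 or 38 or exposed replicate 3 or 7. The 6 calls fell to 2 without air replicate 30 or 38, and to 3 without air replicate 31 or 33 or exposed replicate 3.

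The circadian genes moved in both directions, 3 of 18 higher and 3 lower (median log2 fold change 0.03). Arntl, or BMAL1, the core activator, was at 26.3, 32.7 and 37.1 CPM in air and at 19.9, 21.6, 22, 19.3 and 20.3 CPM with exposure (-0.64, SE 0.08, edgeR adjusted p = 4.32e-05), and its partner Clock was lower by 0.26 (4.37e-05). The outputs Dbp and Bhlhe41 were higher, Dbp from 39.1, 50.5 and 60.02 CPM to 63.5, 74.3, 61.5, 90.5 and 70.9 CPM (0.55, SE 0.10, edgeR adjusted p = 0.000877). These 4 genes separated the groups in every library. The hour of tissue collection is not given in the sources used here.

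Metabolic lists had small changes (6.15% of all genes were higher and 7.47% lower). Cholesterol synthesis had 2 of 21 higher (Dhcr7, 0.25, edgeR adjusted p = 0.000212, and Cyp51, 0.27, 0.00711), and Cyp51 was lost without air replicate 31, 37, 38 or 39 or exposed replicate 4 or 5. Glycolysis had 4 of 17 lower (7.47% of all genes; median -0.06), led by lactate dehydrogenase Ldha at -0.23 (edgeR adjusted p = 0.00092). Retinoic acid signalling had 3 of 18 higher and none lower, among them Crabp1, a binding protein, at 2.17, 2.32 and 3.11 CPM in air and 4.14, 5.08, 3.95, 4.71 and 3.65 CPM with exposure (0.80, SE 0.14, edgeR adjusted p = 0.000614), and without exposed replicate 7 the count was 5. Genes of DNA methylation had 1 of 15 lower (Mbd5, -0.21, edgeR adjusted p = 0.00148) and none higher.

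Many choroid plexus genes were far higher in nicotine-free replicate 7 (title ExposednoNic_7M) than in the other libraries. Transthyretin, Ttr (chromosome 18, 20823751 to 20832825 in mm9), the main secretory product of this epithelium, had 17708 counts there, or 839 CPM. In nicotine-free replicates 2, 3, 4 and 5 it was at 3.86, 8.25, 1.53 and 5.37 CPM, and in air at 0.255, 1.39 and 19.4 CPM. Of the 28 genes of the list 25 passed the filter on low counts, but Folr1, Kcne2, Slc4a5, Steap1 and Calml4 passed only through replicate 7, where they had to be high. Among the 20 that passed without it, replicate 7 was the highest of the 11 libraries in 20, as it was in 10.7% of the 15222 genes that passed the same way, and in 10 it was more than 2-fold above the next library. Lmx1a, Cox8b and Slco1a5 did not pass the filter and had 9, 13 and 9 counts in replicate 7 against at most 3, 10 and 5 in any other of the 11 libraries.

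Several transport and barrier genes of this epithelium were near 0 in the other libraries. Slc4a5, a sodium bicarbonate cotransporter, was at 9.14 CPM in replicate 7 and at no more than 0.366 CPM elsewhere. Folr1, the folate receptor that carries folate into the fluid, was at 8.57 CPM against at most 0.488 CPM, Cldn2, the pore-forming claudin of the leaky epithelium, at 12.9 against at most 0.651 CPM, and Kcne2, a potassium channel subunit, at 5.54 against at most 0.325 CPM. Kl, or klotho, reached 47.0 CPM beside 4.49 to 9.81 CPM in the other 10 libraries. The potassium channel Kcnj13 and the Wnt antagonist Sostdc1 were at 9.14 and 12.5 CPM, and no other library exceeded 1.95 and 3 CPM. For these 7 genes the other nicotine-free libraries overlapped air.

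Enpp2, or autotaxin, which oligodendrocytes also make, was at 552 CPM in replicate 7 against 200.1 to 292 CPM elsewhere. Smaller excesses were seen for Slc31a1, a copper transporter, at 70.2 against at most 59.5 CPM, and for Mdfic at 9.28 against at most 8.23 CPM. Of the genes over 4-fold above the rest of the nicotine-free group in replicate 7, 12 of 15 belonged to the choroid plexus list. The other 3 were 1500015O10Rik, Ccdc135 and Zfp185, named here after their values were seen. The ratio was taken after adding 0.05 CPM, for genes over 1 CPM. Among the 12, Folr1, Kcne2, Slc4a5, Steap1 and Calml4 passed the filter only through replicate 7 and so had to be high there. The list holds 25 of the 15293 genes tested.

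**Figure D5:**
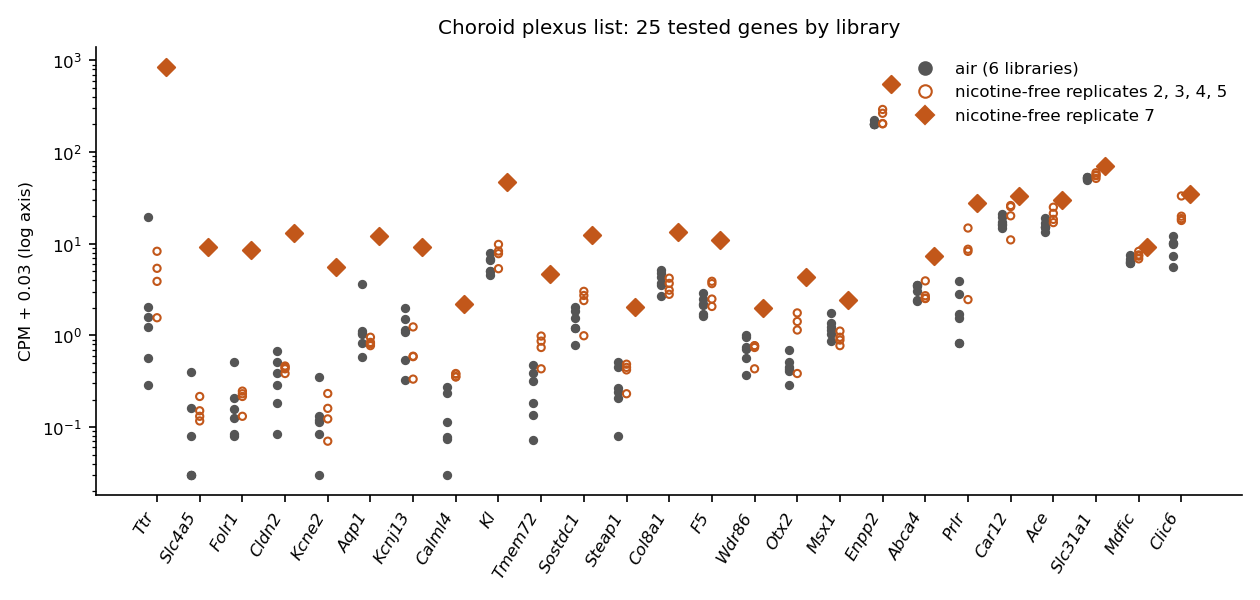
CPM plus 0.03 on a log axis of the 25 tested choroid plexus genes in the 6 air libraries (grey points), nicotine-free replicates 2, 3, 4 and 5 (open circles) and nicotine-free replicate 7 (diamonds), ordered by how far replicate 7 stood above the other nicotine-free libraries. Replicate 7 was the highest library for all 25 genes, 5 of which passed the filter only through it, with Ttr at 839 CPM on the left and Clic6 at 34.7 CPM, close to another exposed library, on the right.

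In the test over all 5 exposed libraries, 6 of the 25 genes were higher and none lower (6.15% and 7.47% of all genes), with a median log2 fold change of 1.29, or 1.09 over the 20 that did not need replicate 7 to pass. The 6 were Ttr, Clic6, Prlr, Otx2, Tmem72 and Calml4, of which Calml4 passed the filter only through replicate 7. Among the 20, 5 were called, beside 2082 of the 15222 genes that passed the same way. In the fit without replicate 7 the median of the 20 was 0.23, and 4 remained called: Clic6, Prlr, Otx2 and Tmem72. The call of Ttr (5.28, SE 1.36, edgeR adjusted p = 0.00839) was lost, with a log2 fold change of 0.14 and an adjusted p of 0.923. It was also lost without air replicate 31, 33, 37, 38 or 39 or nicotine replicate 21, and with DESeq2 and voom. Calml4 was lost without air replicate 31, 37, 38 or 39, and Otx2 and Tmem72 without air replicate 38. Ttr, Otx2 and Tmem72 were also lost when only the 2 groups compared were fitted. The list's count was 2 without air replicate 38.

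Some members were higher in other exposed libraries as well. Clic6, a chloride channel protein, was at 19.9, 33.2, 17.9, 18.8 and 34.7 CPM in the exposed libraries against 5.56, 10.001 and 12.2 CPM in air (log2 fold change 1.44, SE 0.19, edgeR adjusted p = 6e-05), and 1.29 without replicate 7. Prlr, the prolactin receptor, was at 8.23, 8.68, 14.8, 2.43 and 27.5 CPM against 0.800, 1.61 and 3.91 CPM, with replicate 5 inside the air range. Otx2, a homeodomain factor of choroid plexus and of some deep brain regions, was at 1.12, 1.39, 1.73, 0.354 and 4.36 CPM against 0.255, 0.417 and 0.667 CPM. Their log2 fold changes without replicate 7 were 2.14 for Prlr and 1.40 for Otx2.

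The neuronal and myelin lists did not rest on replicate 7. Over all genes 2174 were called without it (14.3% of 15222), 1000 higher (6.57%) and 1174 lower (7.71%), and 1848 of the 2084 genes called with it were called again, while 236 were not. Cortical glutamatergic markers had a median log2 fold change of -1.14 with 16 of 17 lower, cholinergic markers of 1.69 with 12 of 13 higher, and myelin genes of 0.65 with 26 of 28 higher. Other lists had fewer calls without it, among them ependyma (2 in place of 4), glucocorticoid-responsive genes (4 in place of 6), potassium channels (9 in place of 11) and glycolysis (3 in place of 4). Some had more, such as interneurons (9 higher and 4 lower in place of 7 and 2) and striatal projection neurons (8 in place of 6). Within air, Ttr was also uneven, with 19.4 CPM in its highest library, replicate 30.

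The nicotine-free group was also set directly against the aerosol with nicotine in the same run. The aerosols were made from different cartridges, were given in separate chambers and had unequal mean particle levels per the methods, so nicotine, particle level and chamber cannot be told apart. Only 38 genes differed (0.248% of those tested), 4 higher (0.0262%) and 34 lower (0.222%) in the nicotine-free group. Bmp3, a growth factor of the bone morphogenetic family, was at 4.65, 2.60, 5.88, 3.80 and 5.78 CPM in nicotine-free libraries and at 8.54, 11.8 and 13.9 CPM with nicotine (log2 fold change -1.31, SE 0.18, edgeR adjusted p = 0.00239). Lct, the lactase gene, was at 1.16, 0.651, 0.926, 0.709 and 0.994 CPM against 1.28, 2.90 and 3.95 CPM (-1.66, SE 0.23, edgeR adjusted p = 0.00239). Tshz3 and Slc39a10 were lower (-0.63 and -0.42) and Bcas1 higher (0.41), each with the same edgeR adjusted p. For these 5 genes the groups did not overlap.

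The count depended on single libraries. It was 0 in fits without nicotine-free replicate 3 or 5, 1 without replicate 4, 5 without nicotine replicate 16, 17, 21 or 22, 100 without nicotine-free replicate 2, 161 without nicotine-free replicate 7 and 246 without nicotine replicate 19. At an unadjusted p below 0.05, 3071 genes differed. Against air the medians with nicotine were -0.29 for cortical glutamatergic, 0.98 for cholinergic and 0.14 for myelin genes, beside -0.99, 1.56 and 0.58 without nicotine. Both comparisons use the same 6 air libraries.

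The run without M in its titles held the same comparison in 11 female samples, 5 nicotine-free and 6 air. The question was whether the change against air differed between the runs, and no gene passed in a test of that difference over 15105 genes (0%), where the lowest edgeR adjusted p was 0.945 and 742 genes had an unadjusted p below 0.05. DESeq2 also called 0. Sex and sequencing run cannot be told apart here. The smallest p values belonged to Nfkbib, an inhibitor of NF-kappa-B (log2 fold changes 0.15 in males and -0.09 in females), and Plekhf1, an endosomal protein (0.81 and 0.07). The list medians in females were -0.91 for cortical glutamatergic, 2.09 for cholinergic and 0.54 for myelin genes, and 0.08 for choroid plexus genes. The male choroid plexus median was 1.29 over 25 genes with replicate 7. Over the 20 that passed the filter without replicate 7, it was 1.09 with this library and 0.23 in the fit without it.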

How the data were processed

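Frontal cortex RNA was sequenced by the authors as single reads. Per their methods and processing notes, Bowtie, SAMtools and HTSeq gave counts per gene on the mouse transcriptome of build mm9, with duplicate reads removed and both sexes sequenced in separate runs. They deposited raw counts per sex, used here, and size-factor normalized values, not used. Among the count columns, 1 matched no labelled sample and was not used. The authors state that 1 outlier sample per sex was left out.

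Genes of the M-titled table were kept at a CPM summed over its 17 samples of at least 5 (15293 of 23366 rows). TMM-scaled counts of the 3 groups were fitted together with edgeR 4.0.16 (quasi-likelihood, no covariates, Benjamini-Hochberg adjusted p below 0.01). The difference between runs was an interaction contrast over all 33 samples. Alternatives used DESeq2 1.42.0, limma 3.58.1 (voom with sample quality weights), other scalings, filters and thresholds, and each sample left out. Replicates are separate pups, so p-values measure the spread between these animals. On simulated counts (15251 genes), 71 of 100 genes changed by 0.5 and 97 of 100 changed by 1 on the log2 scale were recovered, with 2 false calls. For the difference between runs the numbers were 57 and 91 of 100 with 3 false calls (15105 genes).

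The 43 gene lists and the tests were chosen with earlier results of these data known, so lists are given by counts and medians without a test. Genes named are the 8 higher and 8 lower with the smallest p among called genes whose groups did not overlap, the 6 higher and 6 lower with the largest change at a mean of at least 1 CPM, up to 4 called members per list by p with its highest member by CPM, all tested choroid plexus genes, Xist and 4 Y-linked genes, and the 5 smallest p of each contrast that tests a difference. Not all were named, and some results that the rule names are not reported here. Chat, Lhx8, Zic4, Slc17a7, Nrgn, Mag, Opalin, Gfap, Sox10 and Satb1 were named outside this rule after their values were seen. Positions and shared 50-base windows came from the mm9 annotation. R 4.3.3, Python 3.11.15, pandas 2.3.3 and matplotlib 3.10.9 were used.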

Additional observations from a re-analysis of the deposited data

Results flagged for a closer look

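In 18 of 302 groups of libraries, over 151 genes, the highest or lowest library stood further from the rest than Dixon's 95% limit allows. Chance alone does so in about 1 group in 20, so the total is near what chance gives. The genes were not a random set, since the naming rule takes in every choroid plexus gene tested. Of the 18 flags, 11 were in nicotine-free replicate 7. In 9 the flagged value was the high one and the gene belongs to the choroid plexus list: Ttr at 839 CPM, Kl at 47.0, Col8a1 at 13.4, Cldn2 at 12.9, Aqp1 at 12.3, Slc4a5 at 9.14, Folr1 at 8.57, Kcne2 at 5.54 and Calml4 at 2.18 CPM. In the other 2 the replicate was the lowest exposed library, Chat at 9.05 and Nkx6-2 at 16.3 CPM, nearest to air. Slc4a5, Folr1, Kcne2 and Calml4 passed the filter on low counts only through replicate 7, where they had to be high. Their flags thus carry no weight of their own. Nicotine-free replicate 3 was the lowest for Tbr1 (45.9 CPM) and Dkkl1 (3.43 CPM) and the highest for Gfap (303 CPM). In air, replicate 37 was high for Enpp2 (224 CPM) and low for Slc7a10 (40.3 CPM), replicate 39 high for Aqp1 (3.65 CPM), and replicate 33 held the 1 count of Gh (0.0507 CPM).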

How the results depend on the processing

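The count of genes differing from air was 2084. It was 3782 at an adjusted p below 0.05 and 625 with an absolute log2 fold change of at least 0.5 as well, and ranged from 1521 (without air replicate 38) to 2174 (without nicotine-free replicate 7) when 1 library was left out. DESeq2 gave 2624, voom 2317 and a fit of only the 2 groups compared 1755. With only these 2 groups, Chrna2, Cyp51, Fezf1, Gria2, Hsph1, Otx2, Slc2a1, Tmem72 and Ttr lost their call. The 38 differences from the nicotine group were 456 with DESeq2, 59 with voom, 0 with only those 2 groups fitted, 544 at an adjusted p below 0.05, and 0 to 246 with 1 library left out. The difference between runs stayed at 0 calls with a replicate block for the female groups, whose shared numbers did not pair the samples. Genes that changed sign were not called. For Abca4 and Aqp1 the lowest value given next was from the fit without nicotine-free replicate 7. With 1 library left out, log2 fold changes ran from -0.0663 to 0.44 for Abca4, -0.72 to 1.76 for Aqp1, -0.22 to 0.60 for Col8a1, -0.0734 to 0.14 for Egr1, -0.72 to 1.39 for Kcnj13, -0.42 to 0.12 for Msx1 and -0.13 to 0.55 for Wdr86, and the cause was not tested. Of 125 called genes named here, 108 were called under every alternative tool, scaling, filter, group choice and left-out library. Genes at a few CPM rest on few reads, and 1 low library can decide them.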
